A study of Homo sapiens with 12 samples.

Results

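The response to a mitochondrial and an endoplasmic reticulum (ER) stressor was followed in HCT116 cells for 10 genes widely used as readouts of hypoxia: NDRG1, VEGFA, ADM, ANKRD37, ANGPTL4, CA9, EGLN3, BNIP3, BNIP3L, and KDM3A. They were picked by symbol, with earlier results of these data known, and all 10 were found among the 60708 genes of both count tables. Of these 10, NDRG1 and VEGFA are also known as targets of ATF4, and the other 8 are called HIF-only genes here, which means only that they are better known as targets of the hypoxia-inducible factors. RNA-seq was performed on 12 libraries in 4 groups of 3. Oligomycin A (OA), which blocks the mitochondrial ATP synthase, was compared with its own DMSO libraries (OActrl), and tunicamycin (TN), which blocks N-linked glycosylation in the ER, was compared with a separate set (TNctrl). All cells were of genotype WT and were collected after 24 h in medium with serum. The labels give 5 µg/mL for each agent, while the study's methods give a different concentration for OA, so the dose of OA is uncertain. HCT116 is an established human colon cancer line, so every value describes a single line at a single time. No library was made under low oxygen, so the size of a hypoxia response in these cells was not measured.

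As background, the hypoxia-inducible factors HIF-1α (HIF1A) and HIF-2α (EPAS1) are made continuously. With oxygen present, prolyl hydroxylases mark them for the VHL ubiquitin ligase and they are destroyed. Without oxygen they persist, pair with ARNT, and bind short DNA elements near genes for glycolysis, new vessels, pH control, and mitophagy. ATF4 is the transcription factor of the integrated stress response. Its translation rises when a stress kinase phosphorylates eIF2α, and several genes, among them NDRG1 and VEGFA, can be driven by either system. Much of the control of HIF-1α acts on the protein, which was not measured here, so RNA levels of HIF1A do not give HIF activity.

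Promoter sequences are shown because the grouping rests on which factor a gene is known to answer to. RefSeq windows of GRCh38.p14, 250 bases before to 50 bases after a gene's start, were used for 7 of the 10 genes. NDRG1, VEGFA, and BNIP3L were not among these 7. The gene counts below therefore do not cover NDRG1 or VEGFA, the genes also known as targets of ATF4. The letters ACGTG and GCGTG, both forms of the core of the hypoxia response element, and TGATGNAA, a core of the element bound by ATF4 with a C/EBP partner, were searched on both strands. CACGTG reads the same on both strands and therefore counts as 2 matches of ACGTG. At least 1 of the 2 hypoxia cores was in the windows of 6 of the 7 genes. The same was true of 48.4% of all 35116 windows, where ACGTG was in 21.4% and GCGTG in 36.5%. EGLN3 had neither form in its window. TGATGNAA was in none of the 7 and in 3.62% of all windows. A match is a string of letters and not a shown binding site, and elements outside these windows were not searched. The 250 bases before the start are printed for ANKRD37 and ANGPTL4, whose treated levels lay above the DMSO levels with both agents, for BNIP3, whose levels overlapped, and for CA9, which was hardly counted. Capitals mark ACGTG or GCGTG on either strand, so CACGT and CACGC are the same letters on the other strand. The windows are chr4:185396591-185396840 (plus strand), chr19:8363905-8364154 (plus), chr10:131981924-131982173 (minus), and chr9:35673678-35673927 (plus), in that order. The starts are those of RefSeq, and the windows of ANKRD37 and ANGPTL4 lie inside the gene spans given below, which come from another annotation.
ANKRD37: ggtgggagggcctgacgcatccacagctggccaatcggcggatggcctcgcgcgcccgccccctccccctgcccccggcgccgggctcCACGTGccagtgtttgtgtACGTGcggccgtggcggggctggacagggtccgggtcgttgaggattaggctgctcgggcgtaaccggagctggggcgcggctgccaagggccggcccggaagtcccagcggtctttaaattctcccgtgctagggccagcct
ANGPTL4: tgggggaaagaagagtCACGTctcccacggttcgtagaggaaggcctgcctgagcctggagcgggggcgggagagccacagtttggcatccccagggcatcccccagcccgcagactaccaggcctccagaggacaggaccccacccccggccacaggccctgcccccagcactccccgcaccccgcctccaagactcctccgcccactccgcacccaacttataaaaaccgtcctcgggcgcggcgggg
BNIP3: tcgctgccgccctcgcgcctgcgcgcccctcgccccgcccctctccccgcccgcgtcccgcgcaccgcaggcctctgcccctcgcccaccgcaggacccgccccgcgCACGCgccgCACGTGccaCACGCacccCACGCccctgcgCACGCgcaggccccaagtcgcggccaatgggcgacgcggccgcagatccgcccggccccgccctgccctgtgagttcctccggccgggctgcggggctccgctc
CA9: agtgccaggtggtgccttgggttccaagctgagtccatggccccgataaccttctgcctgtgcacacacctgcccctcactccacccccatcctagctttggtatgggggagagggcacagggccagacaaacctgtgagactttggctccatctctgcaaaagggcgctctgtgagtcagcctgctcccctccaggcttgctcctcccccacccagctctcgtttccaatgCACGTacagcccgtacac
BNIP3 held the most matches of these 4 with 6, ANKRD37 held 3, and ANGPTL4 and CA9 held 1 each.

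The libraries held between 9884124 and 24983573 counts. The 10 genes together took 0.0246% to 0.0311% of the counts of a DMSO library and 0.0562% to 0.0847% of a treated one. RN7SL1, the RNA of the signal recognition particle, took 6.02% to 8.11% of the counts in the OActrl libraries and 8.4% to 17.9% in the OA libraries. In TNctrl its share was 6.23% to 7.5%, and in TN it was 9.22% to 13.3%. OA replicate 2 (17.9%) and TN replicate 1 (13.3%) held the highest shares of their groups, and the part of this difference in the results below was not tested. Levels are given as CPM, counts relative to the TMM-scaled total of the library. Of 9 colon epithelium markers, 7 passed the filter on low counts, CDX1 was at 0 in all 12 libraries, and VIL1 never exceeded 3 counts. CDH1 was the only one of these 7 to pass the test, with a log2 fold change of 1.81 with OA and 1.69 with TN. The 9 markers of immune cells, fibroblasts, and endothelium summed to 21 to 129 counts per library, highest in OA replicate 2, and of these only COL1A1 was tested (log2 fold change 2.02 with OA, adjusted p = 0.0723 by edgeR, and 0.22 with TN, adjusted p = 0.849). In bulk RNA, fewer cells of a kind and less RNA per cell cannot be told apart. The replicates are labelled biological, and the study describes its experiments as independently repeated, so the tests measure the spread between 3 such libraries per group.

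NDRG1 and VEGFA rose with both stressors, and ANGPTL4 rose with OA. No gene of the 10 passed as lower in these fits, which hold no replicate block. Of the 9 genes that passed the filter, 3 were higher with OA, beside 2.76% higher and 1.72% lower among all 14681 genes tested. With TN, 2 of 9 were higher, beside 3.65% higher and 3.34% lower among 14432 genes. By the plainer criterion of groups that do not overlap, 5 of 9 lay above their DMSO libraries with OA and 5 of 9 with TN, and none lay below. Among all genes that criterion held for 16.3% upward and 15.5% downward with OA, and for 15.9% upward and 16.8% downward with TN. NDRG1, VEGFA, ANKRD37, and ANGPTL4 were in both sets of 5, KDM3A was in that of OA, and BNIP3L in that of TN. Among the 7 HIF-only genes tested, the medians of the log2 fold change were 0.57 with OA and 0.43 with TN, beside -0.02 and -0.03 over all tested genes.

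**Figure D1:**
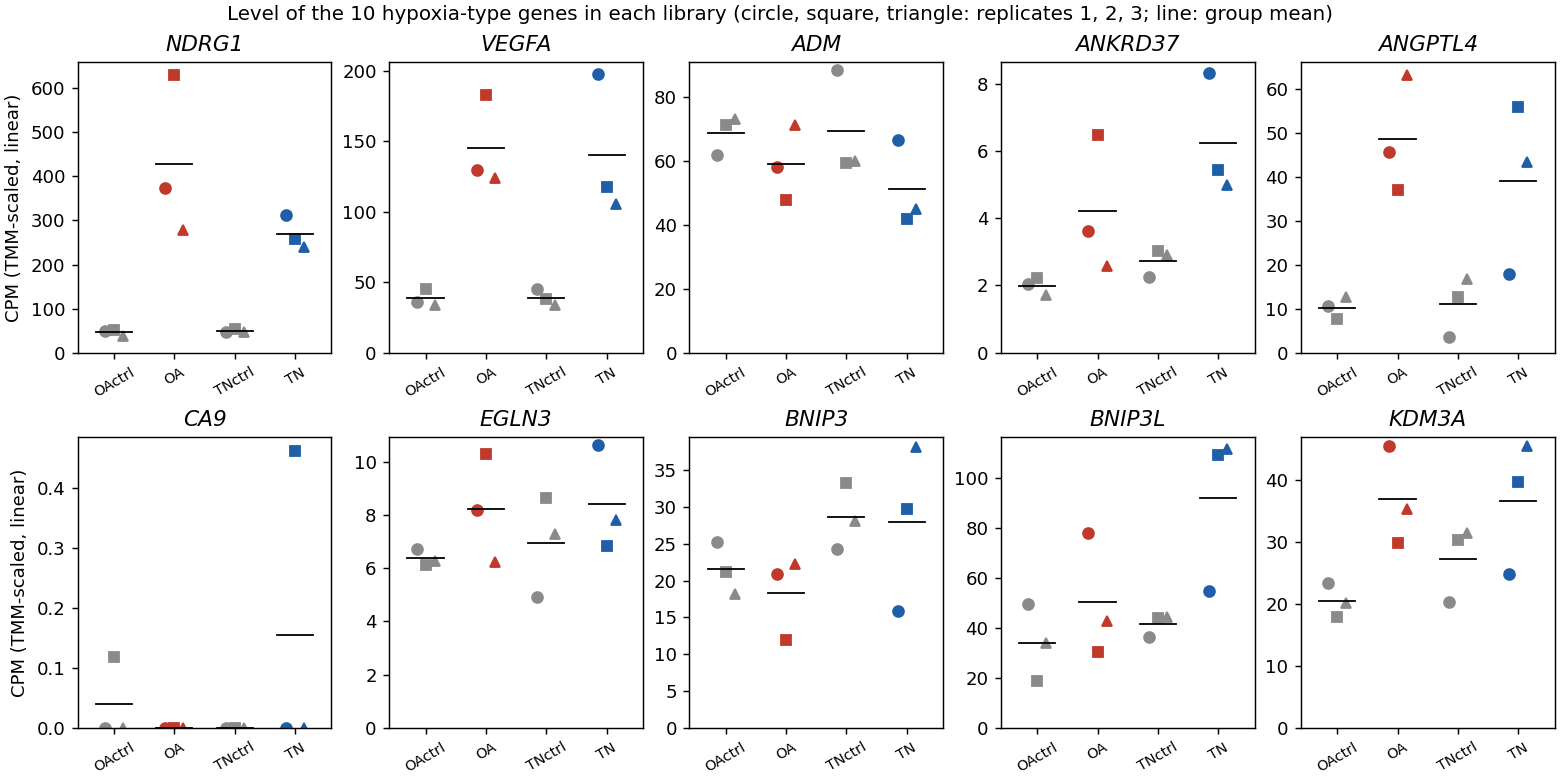
Level of each of the 10 genes in the 12 libraries, as TMM-scaled CPM on linear axes that start at 0 and differ between panels. Points are libraries and lines are group means of 3. NDRG1 and VEGFA are higher in every treated library than in any DMSO library, ADM and BNIP3 overlap, and CA9 stays under 0.5 CPM.

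NDRG1 encodes a cytoplasmic protein of stress and differentiation that carries the name N-myc downstream regulated, and it lies on the minus strand of hg38 chromosome 8, from 133237175 to 133302022. In the OActrl libraries it stood at 49.5, 52.3, and 37.7 CPM, and in the OA libraries at 374, 630, and 279 CPM. The lowest OA library was thus well above the highest DMSO library, and OA replicate 2 stood highest. The log2 fold change was 3.20 (SE 0.36, adjusted p = 0.0116, edgeR quasi-likelihood test with Benjamini-Hochberg adjustment), a 9.20-fold rise. For TN the DMSO values were 47.4, 53.2, and 46.4 CPM and the treated values 311, 259, and 241 CPM. These did not overlap either, and the spread among the TN libraries was smaller than among the OA libraries. With TN the log2 fold change was 2.46 (SE 0.21, edgeR adjusted p = 0.0026), a 5.51-fold rise.

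VEGFA encodes the main growth factor of new blood vessels and spans chromosome 6 from 43770184 to 43786487 on the plus strand. It stood at 36.1, 45.3, and 34.0 CPM in OActrl and at 130, 183, and 124 CPM in OA. The rise was 3.78-fold (log2 fold change 1.92, SE 0.26, edgeR adjusted p = 0.0168). In TNctrl the values were 45.1, 38.2, and 33.7 CPM, and in TN they were 198, 117, and 106 CPM. TN replicate 1 was the highest of the 12 libraries, and the lowest TN library was still above every DMSO library. The rise with TN was 3.6-fold (log2 fold change 1.85, SE 0.30, edgeR adjusted p = 0.0137).

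These calls rest on few libraries. When any 1 of the 3 OActrl libraries was left out, none of the 9 genes passed with OA, although the log2 fold change of NDRG1 stayed between 3.06 and 3.33 with an edgeR adjusted p of 0.0773 to 0.127. The number of all genes called then fell to 5, 3, and 3 from 658. Without OA replicate 3, NDRG1 alone passed, and VEGFA (edgeR adjusted p = 0.0518) and ANGPTL4 (0.0583) did not. In that fit 91 of all genes were called, 67 of them (0.432%) higher. In the TN experiment NDRG1 passed whichever library was left out, and VEGFA did not pass without TNctrl replicate 2 (edgeR adjusted p = 0.077) or TNctrl replicate 3 (0.0743). In these 2 fits the number of all genes called with TN was 183 and 151, in place of 1009.

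**Figure D2:**
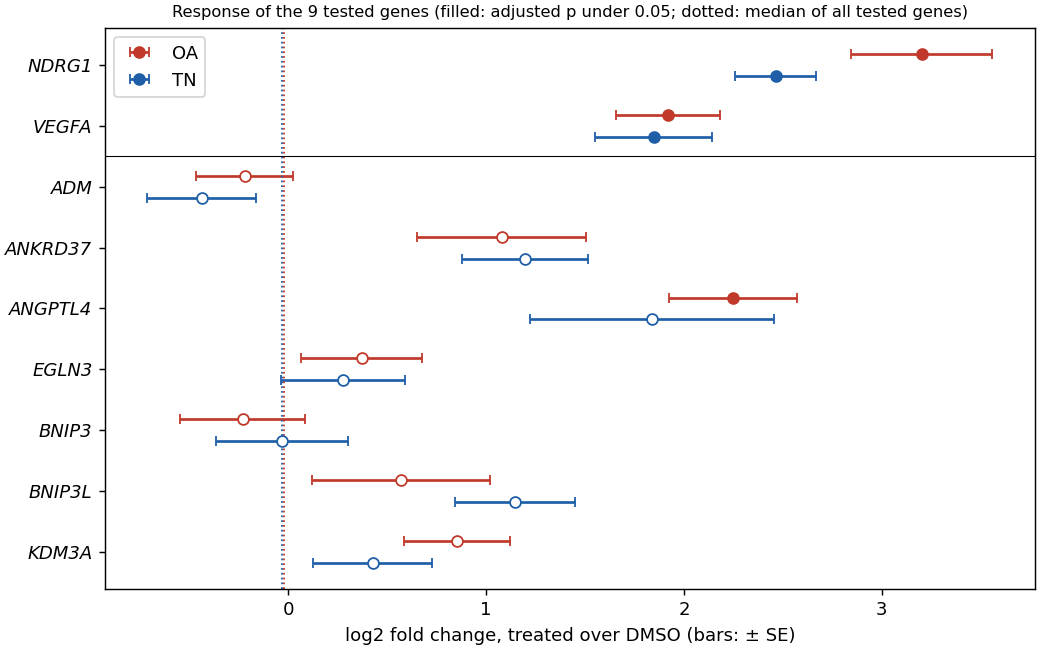
Log2 fold change of the 9 tested genes with OA (red) and TN (blue), with bars of 1 SE; filled points passed an adjusted p of 0.05 and dotted lines are the medians of all tested genes. In these fits without a replicate block, NDRG1 and VEGFA, above the black line, are filled for both stressors, and ANGPTL4 is filled for OA.

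ANGPTL4, a secreted inhibitor of lipoprotein lipase, gave the largest response of the HIF-only genes. It is also a classic target of the PPAR nuclear receptors. Its gene spans chromosome 19 from 8363289 to 8374370 on the plus strand. In OActrl it stood at 10.5, 7.59, and 12.6 CPM, and in OA at 45.7, 36.9, and 63.2 CPM. The groups lay far apart, and the log2 fold change was 2.25 (SE 0.32, edgeR adjusted p = 0.0189). For TN the DMSO values were 3.50, 12.6, and 16.8 CPM and the treated values 17.9, 56.0, and 43.5 CPM. Here replicate 1 was the lowest library of its group on both sides, and the highest DMSO library came within about 1 CPM of the lowest TN library. Without regard to replicate numbers the log2 fold change was 1.84 (SE 0.62) and did not pass (edgeR adjusted p = 0.12).

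Replicate numbers were taken to pair the libraries of the TN experiment, by the criterion given in the processing notes. The pairing of replicates 2 and 3 is uncertain, since TNctrl replicate 3 correlated with TN replicate 2 (0.436) as well as with TN replicate 3 (0.427). With the replicate number as a block in the model, 5 of the 9 genes were higher with TN and none lower, beside 11.8% higher and 15.3% lower among all genes in that fit. ANGPTL4 then had a log2 fold change of 1.93 (edgeR adjusted p = 0.00088), and the TN library was 5.11, 4.45, and 2.58 times its DMSO library of the same number. BNIP3L (log2 fold change 1.08, edgeR adjusted p = 0.00498) and ANKRD37 (1.17, edgeR adjusted p = 0.0347) passed as well. ADM was lower in each of the 3 pairs, at 0.751, 0.704, and 0.754 of its DMSO library, and narrowly did not pass with the block (edgeR adjusted p = 0.054), but passed as lower with an offset for GC content. KDM3A was higher in each pair, at 1.23, 1.31, and 1.45 times its DMSO library, and did not pass with the block alone (log2 fold change 0.41, edgeR adjusted p = 0.0858) but did with the GC offset (0.60, edgeR adjusted p = 0.0302) and with both (0.59, edgeR adjusted p = 0.00449).

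**Figure D3:**
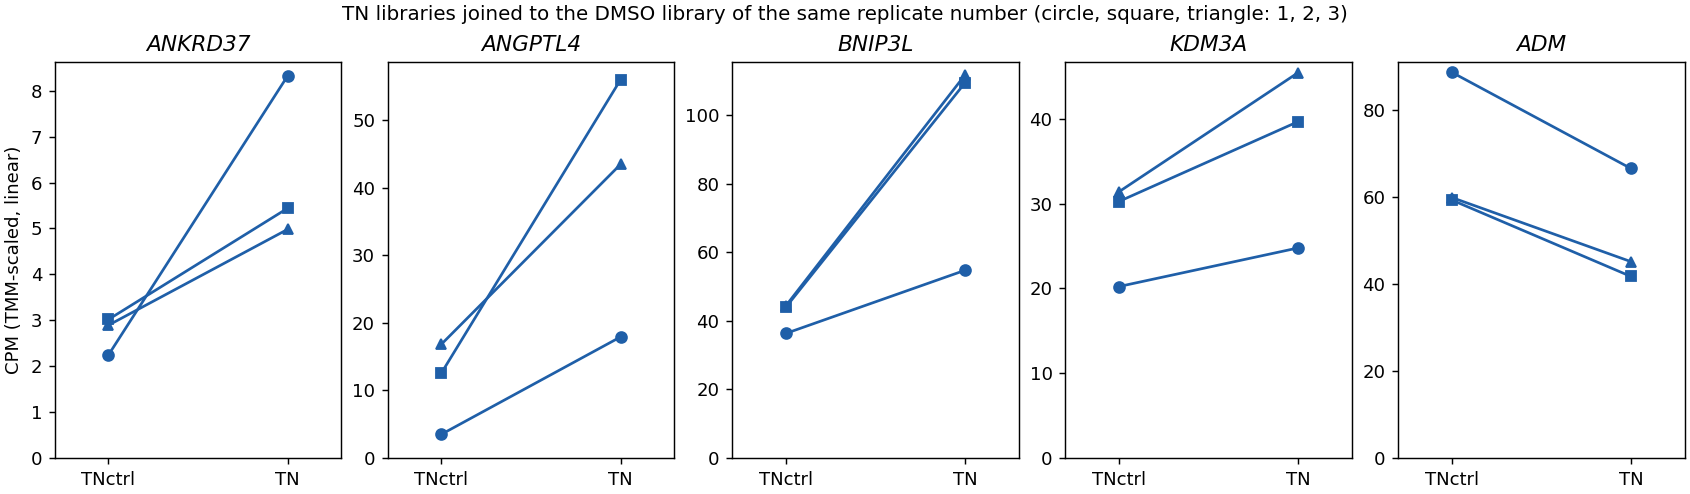
CPM (linear axes from 0) of ANKRD37, ANGPTL4, BNIP3L, KDM3A, and ADM in the TNctrl and TN libraries, with a line joining libraries of the same replicate number. All 3 lines rise for ANKRD37, ANGPTL4, BNIP3L, and KDM3A, and all 3 fall for ADM.

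ANKRD37, a small ankyrin repeat protein whose gene is a much used hypoxia marker, was low throughout, at 25 to 79 counts per library. It stood at 2.05, 2.21, and 1.73 CPM in OActrl and at 3.61, 6.49, and 2.59 CPM in OA. The OA libraries lay above the DMSO libraries, but OA replicate 3 only by a small margin, and the log2 fold change of 1.08 (SE 0.43) did not pass (edgeR adjusted p = 0.179). In TNctrl it stood at 2.25, 3.02, and 2.89 CPM and in TN at 8.32, 5.44, and 4.98 CPM. The groups were again apart, and the log2 fold change was 1.20 (SE 0.32, edgeR adjusted p = 0.0686). On chromosome 4, from 185396021 to 185400628, ANKRD37 overlaps the antisense gene UFSP2, which held up to 744 counts per library. The libraries came from a stranded kit, but the strand setting of the counting is not given in the sources used here, so reads of the 2 genes may not be told apart.

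BNIP3 and BNIP3L encode related proteins of the outer mitochondrial membrane that mark mitochondria for mitophagy. BNIP3L stood at 49.7, 18.6, and 34.0 CPM in OActrl and at 78.1, 30.4, and 42.9 CPM in OA. Both groups were wide and overlapped, with a log2 fold change of 0.57 (SE 0.45, edgeR adjusted p = 0.479). This value rested on single libraries, at 0.0921 without OA replicate 1 and 1.00 without OActrl replicate 1, and with the GC offset it was 1.07 and passed (edgeR adjusted p = 0.00755). With TN it went from 36.4, 44, and 44.4 CPM to 54.8, 109, and 112 CPM. All TN libraries were above all TNctrl libraries, with a log2 fold change of 1.15 (SE 0.30, edgeR adjusted p = 0.0672). BNIP3 stood at 25.3, 21.1, and 18.3 CPM in OActrl and at 20.9, 11.9, and 22.3 CPM in OA, a log2 fold change of -0.23 (SE 0.31, edgeR adjusted p = 0.687). Its values were 24.4, 33.3, and 28.1 CPM in TNctrl and 15.9, 29.8, and 38.2 CPM in TN, a log2 fold change of -0.03 (SE 0.33, edgeR adjusted p = 0.968). OA replicate 2 and TN replicate 1 were the lowest BNIP3 libraries of their experiments. BNIP3 has many processed copies in the genome, and none held over 3 counts in a library. The difference between the responses of BNIP3 and BNIP3L was not tested.

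KDM3A is a histone H3 lysine 9 demethylase that needs oxygen for its reaction. It stood at 23.3, 17.8, and 20.1 CPM in OActrl and at 45.5, 29.8, and 35.3 CPM in OA. The groups did not overlap, and the log2 fold change of 0.85 (SE 0.27) did not pass (edgeR adjusted p = 0.107). In TNctrl it stood at 20.2, 30.2, and 31.4 CPM and in TN at 24.8, 39.7, and 45.4 CPM. Replicate 1 was again the lowest on both sides, and the log2 fold change was 0.43 (SE 0.30, edgeR adjusted p = 0.438).

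EGLN3, an oxygen-sensing prolyl hydroxylase that is itself a HIF target and so part of a feedback loop, stood at 6.71, 6.13, and 6.25 CPM in OActrl and at 8.19, 10.3, and 6.22 CPM in OA. The log2 fold change was 0.37 (SE 0.30, edgeR adjusted p = 0.496). In TNctrl it stood at 4.93, 8.66, and 7.27 CPM and in TN at 10.6, 6.82, and 7.81 CPM, a log2 fold change of 0.28 (SE 0.31, edgeR adjusted p = 0.648). The groups overlapped in both experiments. The annotated span of EGLN3 on chromosome 14 also holds SPTSSA on the same strand.

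ADM encodes adrenomedullin, a vasodilator peptide. Its levels were 61.7, 71.3, and 73.2 CPM in OActrl and 58.0, 47.6, and 71.2 CPM in OA. Both groups overlapped, with a log2 fold change of -0.22 (SE 0.25, edgeR adjusted p = 0.614). In TNctrl ADM stood at 88.6, 59.2, and 59.8 CPM and in TN at 66.5, 41.7, and 45.1 CPM, a log2 fold change of -0.44 (SE 0.27, edgeR adjusted p = 0.381). Scaled to ACTB in place of TMM, its log2 fold change with OA was 0.24 and so of the other sign. The gene lies on chromosome 11 from 10305073 to 10307397.

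CA9, the membrane carbonic anhydrase that is a hallmark target of HIF-1, was not tested. It held 3 counts in OActrl replicate 2, 5 counts in TN replicate 2, and 0 in each of the other 10 libraries. A count of 0 allows up to 0.153 to 0.316 CPM at these depths, on a limit of 3 counts per library that covers counting error only. CA9 was therefore not detectable in the OA libraries at these depths. On chromosome 9 its gene overlaps the antisense gene ARHGEF39, which held up to 783 counts.

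Per kilobase of the canonical transcript, ADM was the highest of the 10 genes in DMSO, at 46.1 ± 4.14 CPM per kb in OActrl (SD, n = 3). NDRG1 (15.4 ± 2.56), BNIP3 (14.0 ± 2.31), VEGFA (10.7 ± 1.66), and BNIP3L (9.87 ± 4.50) followed, and each of these neighbours overlapped the next. ANGPTL4 (5.47 ± 1.35) and KDM3A (4.37 ± 0.594) also overlapped, as did ANKRD37 (2.55 ± 0.313) and EGLN3 (2.35 ± 0.114), and CA9 was last. In the OA libraries NDRG1 was first at 141 ± 60 CPM per kb, apart from VEGFA (40.3 ± 8.98) and ADM (39.5 ± 7.94), which overlapped each other. In TN the first 3 were the same, with NDRG1 at 89.3 ± 12.1, VEGFA at 38.9 ± 14.0, and ADM at 34.2 ± 9.01 CPM per kb. So the gene of highest level changed from ADM to NDRG1 in both experiments, and VEGFA came to stand beside ADM.

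Whether OA and TN acted to different extents was tested as the difference of the 2 responses over all 12 libraries. None of the 9 genes differed (edgeR adjusted p of 1 for each), and of all 15429 genes tested 0% passed, while 348 genes (2.26%) had an unadjusted p under 0.05 in edgeR and 556 in DESeq2, which also called none after adjustment. Over all genes, 25 passed without the filter on low counts, 4 without OA replicate 2, and 1 with a GC offset, and none of the 9 genes was among them. The largest differences on the log2 scale were those of NDRG1, 0.65 higher with OA (SE 0.36), and of BNIP3L, 0.63 lower with OA (log2 difference -0.63, SE 0.62). For VEGFA the difference was 0.01 (SE 0.35). The SE of these differences was 0.35 to 0.74, so small differences could not have been resolved. ANGPTL4 passed with OA in the fit without a block and with TN only in some fits, the blocked one among them, and its own difference between the agents was 0.30 (SE 0.74).

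In each library, the mean log2 deviation of NDRG1 and VEGFA from their DMSO mean was set against that of the 7 tested HIF-only genes. The pair stood above the 7 by 1.60, 2.54, and 1.53 in the OA libraries and by 2.14, 1.29, and 1.11 in the TN libraries. In the DMSO libraries this gap ranged from -0.31 to 0.44. The gap was widest in OA replicate 2 and TN replicate 1, the libraries with the most RN7SL1 of their groups. It is a gap of means and does not part the 2 sets gene by gene. ANGPTL4, one of the 7, deviated by 2.17, 1.87, and 2.64 in OA and by 0.966, 2.6, and 2.24 in TN. VEGFA deviated by 1.76, 2.26, and 1.7 in OA and by 2.35, 1.6, and 1.44 in TN.

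The genes that sense oxygen and transmit the signal were counted as a list. Of 16 genes of this pathway, 15 were tested and HIF3A was not. None passed in either direction in the fit of each experiment without a replicate block. With the block, 1 gene of the 15, VHL, was higher with TN and none was lower, beside 11.8% higher and 15.3% lower among all genes in that fit. The median log2 fold change was 0.09 with OA and -0.11 with TN. EPAS1 had 0.30 with OA and 0.47 with TN, ARNT 0.25 and 0.23, and ARNT2 0.26 and -0.19. VHL, the substrate receptor of the ligase, had the highest values, 0.62 (SE 0.24, edgeR adjusted p = 0.165) and 0.68 (SE 0.21, edgeR adjusted p = 0.0945). VHL passed with TN in the blocked fit, at 0.67 (edgeR adjusted p = 0.0153), and, in fits with no block, with the GC offset (0.74, edgeR adjusted p = 0.0185) and without TN replicate 1 (0.86, edgeR adjusted p = 0.00986). Its partners ELOB (-0.11 and 0.21), ELOC (-0.37 and -0.35), CUL2 (-0.89 and -0.39), and RBX1 (-0.32 and -0.40) did not pass in the fits without a block. The value of CUL2 with OA ran from -1.59 to -0.376 with 1 library left out. The hydroxylases EGLN1 (-0.20 and 0.16) and EGLN2 (0.09 and -0.24) and the asparaginyl hydroxylase HIF1AN (-0.02 and -0.11) were near 0. The coactivators EP300 (0.55 and 0.22) and CREBBP (0.53 and 0.62) and their competitor CITED2 (0.37 and -0.16) did not pass either.

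HIF1A itself stood at 174, 63.4, and 113 CPM in OActrl and at 164, 21.9, and 76.3 CPM in OA. In TNctrl it stood at 93.0, 170, and 171 CPM and in TN at 52.8, 177, and 160 CPM. The spread within each group was far larger than any shift between groups, with log2 fold changes of -0.42 (SE 0.65) and -0.15 (SE 0.46). Several of the 10 genes moved with HIF1A from library to library. Over the 12 libraries, each taken as its deviation from its group mean on the log2 CPM scale, Pearson's r with HIF1A was 0.932 for BNIP3L (Spearman's rho 0.923, and r of 0.924 over the 10 libraries left after dropping the 2 farthest in HIF1A). It was 0.877 for KDM3A (rho 0.86, r of 0.852 over 10) and 0.817 for BNIP3 (rho 0.762, r of 0.586 over 10). VEGFA ran the other way at -0.845 (rho -0.636, r of -0.711 over 10), while NDRG1 went from -0.624 to -0.177 over 10 and ANKRD37 from -0.632 to -0.0846. ANGPTL4 had 0.618 (0.516 over 10). ADM went from -0.287 to -0.518 over 10, EGLN3 from -0.291 to 0.308, and CA9 from 0.107 to -0.127. The same deviations also moved with the log2 share of RN7SL1, with r of -0.908 for BNIP3L, -0.83 for KDM3A, -0.745 for BNIP3, and 0.737 for VEGFA. All points share their libraries, and the part of RN7SL1 or of library composition in these relations was not tested. They are descriptions of these 12 libraries.

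**Figure D4:**
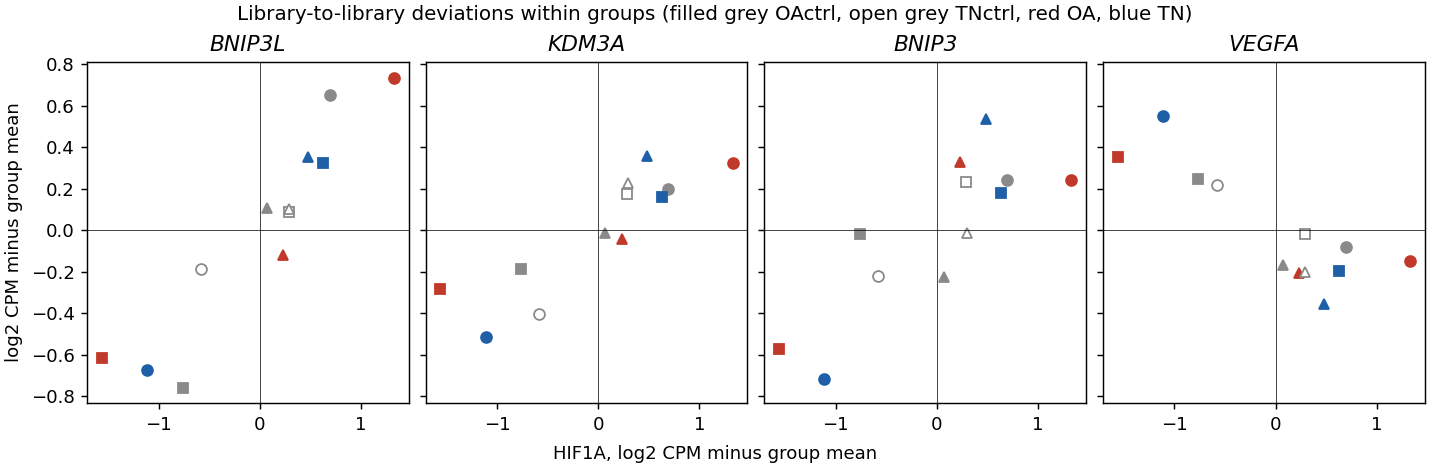
Deviation of each library from its group mean (log2 CPM) for BNIP3L, KDM3A, BNIP3, and VEGFA against that of HIF1A, 12 libraries in 4 groups, with circle, square, and triangle for replicates 1, 2, and 3. BNIP3L, KDM3A, and BNIP3 are low where HIF1A is low (OA replicate 2, TN replicate 1, and, except for BNIP3, OActrl replicate 2), while VEGFA is high there.

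Other well-known HIF targets were mixed. Of 30 listed, 28 were tested. With OA, SLC2A3 and BHLHE40 were higher and LDHA was lower, and with TN, SLC2A3, BHLHE40, and P4HA2 were higher and LDHA and CXCR4 were lower. With the replicate block, 7 were higher with TN (these 3 with GBE1, P4HA1, MXI1, and KDM4B) and 5 lower (these 2 with the glycolytic genes ENO1, PGK1, and PFKFB3). Among all genes in that fit, 11.8% were higher and 15.3% lower, so the count of lower genes was near the share over all genes. The medians were 0.26 and 0.06. SLC2A3, the glucose transporter GLUT3, rose from 5.80 to 7.51 CPM in OActrl to 27.4 to 35 CPM in OA (log2 fold change 2.25, edgeR adjusted p = 0.0142) and had 1.92 with TN (edgeR adjusted p = 0.0198). BHLHE40, a transcriptional repressor that also acts in the circadian clock, had 2.53 (edgeR adjusted p = 0.0297) and 1.55 (edgeR adjusted p = 0.0173). LDHA, which makes lactate and is a core glycolytic HIF target, fell from 674 to 736 CPM in OActrl to 260 to 350 CPM in OA (log2 fold change -1.16, edgeR adjusted p = 0.0333). It fell from 594 to 817 CPM in TNctrl to 250 to 289 CPM in TN (log2 fold change -1.32, edgeR adjusted p = 0.013). The call of LDHA with OA did not hold with ACTB scaling (-0.71, edgeR adjusted p = 0.121), while that with TN did (-0.95, edgeR adjusted p = 0.027). P4HA2, a collagen prolyl hydroxylase, had 0.97 with TN (edgeR adjusted p = 0.0277) and 0.70 with OA, and CXCR4, a chemokine receptor at 0.843 to 4 CPM in the TN experiment, had -1.80 with TN (edgeR adjusted p = 0.0331) and 0.33 with OA. CXCR4 did not pass with TN under ACTB scaling (-1.44, edgeR adjusted p = 0.0751) or in 1 fit of all 12 libraries (-1.80, edgeR adjusted p = 0.0791), and it was left out by a filter of at least 10 counts in every library. With 1 library left out, SLC2A3 passed in 3 of 6 such fits with OA and 1 of 6 with TN, BHLHE40 in 3 and 2 (its log2 fold change with OA was 1.91 without OA replicate 2), LDHA in 2 and 2, and P4HA2 and CXCR4 in 1 each with TN.

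Genes known to answer to both HIF and ATF4 were counted apart. Of 4 such genes beside the 10, DDIT4 and STC2 passed as higher with both agents, ERO1A did not pass (-0.25 and 0.06), and VLDLR was not tested. DDIT4, an inhibitor of mTORC1, stood at 35.9 to 45.9 CPM in OActrl and at 756 to 1279 CPM in OA (log2 fold change 4.58, edgeR adjusted p = 0.00219). With TN it went from 45.1 to 56.5 CPM up to 539 to 917 CPM (3.68, edgeR adjusted p = 0.0024). STC2, a secreted glycoprotein, had 3.08 (edgeR adjusted p = 0.0168) and 2.53 (edgeR adjusted p = 0.00599). The ATF4 pathway list had 26 of 28 genes tested, of which 15 were higher with OA and 15 with TN and none lower in the fits without a block, with medians of 1.58 and 1.43. With the replicate block, 19 were higher with TN and 1 was lower, beside 11.8% higher and 15.3% lower among all genes in that fit. The lower one was EIF2AK2, the kinase PKR that phosphorylates eIF2α (log2 fold change -1.01, edgeR adjusted p = 0.0024). Without the block EIF2AK2 did not pass (-1.05, edgeR adjusted p = 0.51), and it ranged from 24.9 to 197 CPM within TNctrl. DDIT3, the transcription factor CHOP, was the highest at 5.23 and 4.33, and CHAC1 (4.31 and 3.91), GDF15 (3.52 and 3.22), ASNS (3.09 and 2.67), and PCK2 (2.65 and 2.77) passed with both agents. DDIT4 and GDF15 passed with both agents whichever library was left out, and with OA this held for no other tested gene of these 2 lists. Without OActrl replicate 1, 2, or 3 the number of ATF4 pathway genes higher with OA fell from 15 to 2, 1, and 1, and without OA replicate 3 to 7. STC2, DDIT3, ASNS, and PCK2 each passed with OA in 3 of 6 such fits and CHAC1 in 4 of 6, and the log2 fold change of DDIT3 was 4.53 without OA replicate 2. With TN the list count was 7 to 19, lowest without TNctrl replicate 3 (7) and TNctrl replicate 2 (8), and DDIT4, STC2, DDIT3, CHAC1, GDF15, and PCK2 passed in 6 of 6 and ASNS in 5 of 6. These lists were drawn up with earlier results of these libraries known, and they are given as counts beside the shares called over all genes above.

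**Figure D5:**
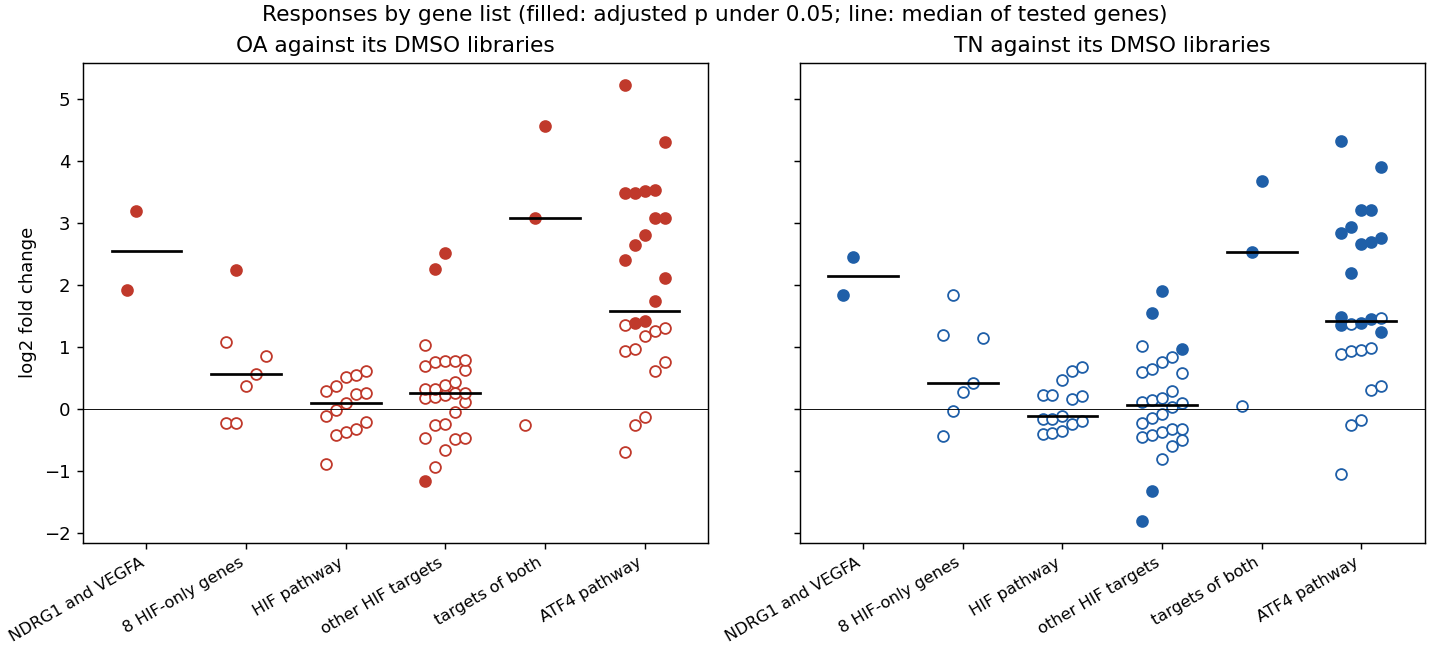
Log2 fold changes by list for OA (left) and TN (right); each point is a gene, filled where the adjusted p was under 0.05, and lines are medians of tested genes. In these fits without a replicate block, the HIF pathway list has no filled point, the other HIF targets lie on both sides of 0, and the filled ATF4 pathway genes are all above 0.

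Relatives and partners of the 10 genes were also counted. Of 17 paralogs, 12 were tested. ADM2, which encodes a relative of adrenomedullin and is itself on the ATF4 pathway list, was higher with OA (log2 fold change 2.81, edgeR adjusted p = 0.0271) and TN (2.84, edgeR adjusted p = 0.0122), while ADM was not. CA2, the cytosolic carbonic anhydrase, was lower with both (-1.99, edgeR adjusted p = 0.0402, and -1.47, edgeR adjusted p = 0.0496), and no other paralog passed in these fits. With 1 library left out, ADM2 passed in 2 of 6 fits with OA and 4 of 6 with TN. The calls of CA2 were near the threshold. It did not pass with total count scaling (edgeR adjusted p = 0.0652 and 0.0548) or ACTB scaling (0.0732 and 0.179), and it passed in 1 of 6 fits with 1 library left out with OA and in 2 of 6 with TN. Of 8 receptors and coreceptors of VEGFA and adrenomedullin, 3 were tested in each experiment. NRP1, a coreceptor of VEGFA, stood at 1.94, 1.23, and 1.63 CPM in OActrl and at 17.0, 9.48, and 12.9 CPM in OA (log2 fold change 3.04, edgeR adjusted p = 0.0156), and passed in 3 of 6 fits with 1 library left out. With TN it had 1.89 (edgeR adjusted p = 0.201) and, with the replicate block, 2.14 (edgeR adjusted p = 0.0131). The signalling receptors of VEGFA, FLT1 and KDR, did not pass the filter.

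The genes most like NDRG1 over the 12 libraries, among 8993 genes of at least 10 CPM on average, were ITGA3 (Pearson r of log2 CPM 0.99), DDIT4 (0.988), ARHGEF2 (0.987), CDCP1 (0.986), and TNFRSF10B (0.985). Those most like VEGFA were MKNK2 (0.995), SARS1 (0.992), TSC22D3 (0.99), EEF1A1P6 (0.989), and HPCAL1 (0.989). NDRG1 and VEGFA had r = 0.974 with each other over the 12 libraries and 0.628 within groups, where the difference between treated and DMSO libraries is taken out. Within groups, NDRG1 was closest among the 10 genes to ANKRD37 (0.908), and VEGFA ran against ANGPTL4 (-0.886). These values describe 12 libraries of 4 groups and carry no test.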

How the data were processed

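RNA-seq of HCT116 cells was analysed in 12 libraries, grouped by their labels. The authors mapped reads to hg38 with STAR, had it count reads for the genes of a Gencode annotation, and deposited raw counts per gene that are not normalized. The text of the study calls the assay mRNA-seq, while the labels name a total RNA kit. Deposited tables of the authors' own DESeq2 comparisons (fold changes, p-values) were not used.

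The quasi-likelihood test of edgeR (version 4.0.16, run in R 4.3.3) was applied to each experiment on its own, with no term for the replicate number, after filterByExpr and TMM normalization. Tests were two-sided, and p-values were adjusted by the Benjamini-Hochberg procedure over every gene tested, with a threshold of 0.05. The difference between OA and TN was a contrast in a fit of all 12 libraries. The SE of a log2 fold change was derived from that change and the F value of its test. CPM used TMM-scaled totals, and log2 CPM a prior count of 2. The script was tested on simulated data. Precision is limited by 3 libraries per group and, for low genes, by counting error. Replicates of a group differed by more than sampling noise (chi-square per gene of 5.92 to 174, the latter between OA replicates 1 and 2). In the TN experiment replicate 1 stood apart from replicates 2 and 3, at 63.1 and 65.5 in TNctrl and 98.9 and 93.1 in TN. Between replicates 2 and 3 the values were 6.78 and 5.92.

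Deviations from the group mean of same-numbered TN and TNctrl libraries correlated at 0.639, 0.409, and 0.427, each above 0.1, so the numbers were taken to pair them, although libraries 2 and 3 also correlated across numbers (0.378 and 0.436).

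The 10 genes and all lists were chosen with earlier results of these data known. Named genes were the 10, every measured gene of the HIF pathway list, ACTB, from each other list the genes with an adjusted p under 0.05, at most 5 by lowest p, and the 5 genes most correlated with NDRG1 and with VEGFA. Genes of these lists that are named without passing (such as ERO1A, COL1A1, and FLT1) were picked after their values were seen. Gene positions are from a later Gencode annotation of hg38, transcript lengths from its canonical transcripts, and promoters from RefSeq. Alternatives were DESeq2 1.42.0, other scalings and filters, a replicate block, 1 joint fit, and each library left out. An offset for GC content was chosen after seeing the data.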

Additional observations from a re-analysis of the deposited data

How the results depend on the processing

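NDRG1 and VEGFA stayed higher with both agents, and ANGPTL4 with OA, under every alternative scaling, filter, tool, block, and GC offset run. The number of the 10 genes higher with OA was 5 with the replicate block and 5 with the GC offset in place of 3 (BNIP3L and KDM3A were added by each), and 0 to 3 with 1 library left out. Of all genes, 11.7% and 8.51% were higher in these 2 fits, against 2.76%. The share was 0.02% (without OActrl replicate 2) to 4.69% (without OA replicate 1) with 1 library left out. The OA numbers did not pair the libraries by the criterion used (same-number correlations 0.625, 0.539, and 0.0908), so this blocked count stands only here, and not every library correlated best with its own number. The number higher with TN was 4 without a filter, 4 with DESeq2, 4 in 1 fit of all 12 libraries, 5 with the replicate block, 5 with the GC offset, and 6 with both, in place of 2 (NDRG1, VEGFA, ANKRD37, and BNIP3L in each of the last 3, with ANGPTL4 in the block, KDM3A in the GC offset, and both in the last), and 1 to 4 with 1 library left out. Of all genes, 2.63%, 5.32%, 4.67%, 11.8%, 11.2%, and 18.2% were higher in these 6 fits, in that order, against 3.65%. With 1 library left out, 0.531% (without TNctrl replicate 3) to 7.26% (without TN replicate 1) of all genes were higher with TN. The fit without TN replicate 1 was the one that gave 4 of the 10 genes. The number lower with TN was 1, ADM, with the GC offset and 1 with the block and the GC offset, where 10.5% and 19% of all genes were lower. The median log2 fold change of the HIF-only genes was taken over the 7 tested ones in the main fits. With OA it moved from 0.569 to 0.927 with ACTB scaling, 1.07 with the GC offset, and 0.358 to 1 with 1 library left out. With TN it moved from 0.426 to 0.759 with ACTB scaling and to 0.281 to 0.694 with 1 library left out. It was 0.8 with DESeq2 and 0.778 without a filter, in both of which CA9 enters, so these 2 are medians over a larger set.

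The other changes of sign were of log2 fold changes that did not pass. With ACTB scaling these were ADM (0.238), BNIP3 (0.198), ELOB (0.373), ELOC (0.0735), RBX1 (0.169), EGLN1 (0.247), and HIF1AN (0.435) with OA, BNIP3 (0.341), HIF1A (0.197), ARNT2 (0.156), HIF1AN (0.219), and CITED2 (0.114) with TN, and ANKRD37 (0.0721) for OA minus TN. ACTB itself had log2 fold changes of -0.49 and -0.35, and scaling to it moved the median of all genes to 0.423 with OA and 0.298 with TN, while total count scaling moved it to -0.225 and -0.182. The GC offset turned ELOC (0.267) and EGLN2 (-0.0404) with OA and HIF1A (0.0253, and 0.0245 with the block) and ELOC (0.016) with TN. Total count scaling turned EGLN2 with OA (-0.12), and the replicate block turned EGLN3 for OA minus TN (-0.0114). With 1 library left out, values crossing 0 were, with OA, BNIP3 (-0.399 to 0.00438), HIF1A (-1.26 to 0.0709), ARNT2 (-0.0881 to 0.801), ELOB (-0.358 to 0.0933), EGLN2 (-0.055 to 0.224), HIF1AN (-0.144 to 0.0778), and CXCR4 (-0.107 to 0.773). With TN they were BNIP3 (-0.33 to 0.298), HIF1A (-0.445 to 0.275), ARNT2 (-0.495 to 0.0675), ELOB (-0.176 to 0.378), CUL2 (-0.63 to 0.0649), EGLN1 (-0.236 to 0.349), EGLN2 (-1.1 to 0.102), and HIF1AN (-0.274 to 0.0427). For OA minus TN they were VEGFA (-0.143 to 0.405), ADM (-0.0852 to 0.462), ANKRD37 (-0.563 to 0.137), ANGPTL4 (-0.139 to 0.707), EGLN3 (-0.105 to 0.298), and BNIP3 (-0.467 to 0.112).

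The number of all genes called went from 658 with OA to 3914 with the replicate block, 2361 with the GC offset, and 1633 with DESeq2, and to 5, 3, and 3 without OActrl replicate 1, 2, or 3. With TN it went from 1009 to 3915 with the block, 3137 with the GC offset, 5367 with both, and 1719 with DESeq2. The 15 ATF4 pathway genes higher were 13 to 22 with OA and 14 to 20 with TN under the alternatives, and 1 to 19 and 7 to 19 with 1 library left out. Other HIF targets higher were 2 to 5 and 3 to 8, and lower 0 to 2 and 1 to 6 (0 to 2, 0 to 6, 0 to 1, and 0 to 2 with 1 library left out). The OA fit with the replicate block called VHL higher (adjusted p = 0.0317 by edgeR) and CUL2 (log2 fold change -1.21, adjusted p = 0.0223) and EIF2AK2 (-1.02, adjusted p = 0.0282) lower, and with TN, EIF2AK2 was also lower with the block and the GC offset (-0.763, adjusted p = 0.00301). The causes were not tested.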
